A study of Mus musculus with 8 samples.

Results

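CD4+ effector T cells recovered from the small intestine lamina propria were compared with cells of the same transfer recovered from the spleen, in hosts that carry the ileal bile acid transporter Asbt. The comparison rests on 4 of the 8 libraries of the study, all those from Asbt+/+ hosts: small intestine and spleen, each with the hairpin shMdr1 and with the control hairpin shCD8. The T cells were congenic CD4+ cells on the C57BL/6 background, transduced with the LMPd retrovirus that carries the hairpin, and about 10000 were sorted per library 6 weeks after transfer. The hosts lacked Rag1 and carried Slc10a2, the gene of Asbt, as +/+. The 4 other libraries came from Rag1-/- hosts that were Slc10a2 -/-. They enter here as a contrast and also in the main fit. That fit took its gene filter, scaling, hairpin term and spread from all 8 libraries. Each combination of tissue, hairpin and host is 1 library, so the hairpins stand as the replicates of the tissue comparison (n = 2 libraries per tissue). Any p-value measures only the spread between the libraries of its fit. The labels do not say whether the libraries came from separate animals or from pools. A hairpin lowers its target and does not delete it, and Rag1-/- hosts make neither T nor B lymphocytes but keep myeloid, erythroid and innate lymphoid cells. The tissue label also carries the organ from which the cells were isolated, so residence in the tissue and its preparation cannot be told apart.

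Effector T cells that enter the gut wall meet food and microbial antigens, bile acids and epithelial signals. Homing there is known to use the chemokine receptor CCR9 and integrins, and staying there goes with loss of the factor KLF2 and of its target S1PR1, the receptor that guides T cells out of tissues. In the spleen, a blood filter and site of red cell and granulocyte turnover, transferred cells sit among other blood cells. Mdr1 is a membrane pump encoded in mice by Abcb1a and Abcb1b, and Asbt reabsorbs bile acids in the ileum.

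Total counts in the Asbt+/+ libraries ran from 1685225 to 2417913. The small intestine library labelled shCD8 stands apart: it held a count for 8456 genes, against 11486 in the small intestine library labelled shMdr1 and 13043 and 13184 in the spleen libraries, and it alone read 0 for genes that reached 20 CPM (counts scaled to library size) in each of the other 7 libraries (49 of 3151 such genes). The mitochondrial share of counts was 18.3% in the small intestine library labelled shMdr1 and 6.63% to 7.33% in the other 3. Abcb1a, which encodes the Mdr1 pump, was at 18.7 CPM with shMdr1 and 40.8 CPM with shCD8 in spleen. In small intestine it was at 14.8 CPM with shMdr1 and 8.28 CPM with shCD8, which goes against the hairpin labels, so the libraries are called by their labels here. Cd8a, the target of the control hairpin, was at 96.3 and 12.9 CPM in the libraries labelled shMdr1 (small intestine, spleen) and at 0 and 3.01 CPM in those labelled shCD8. Slc10a2 had no count in any of the 4. All 16 genes of a CD4 T cell list, such as Cd3e and Cd4, had counts in each library. They summed to 11969 and 10977 CPM in small intestine and 8967 and 8500 CPM in spleen. Transcripts of other cells were present too. In spleen, neutrophil markers summed to 7785 and 6885 CPM and erythroid markers to 2174 and 5171 CPM. Cd4 itself was at 225 and 234 CPM in small intestine and at 134 and 139 CPM in spleen. Below, values of a tissue are always in the order shMdr1, shCD8, as TMM-scaled CPM (TMM is edgeR's correction for differing library composition).

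No gene passed the main test. Of 10000 genes tested, edgeR's quasi-likelihood test called 0 higher and 0 lower (0% each) at an adjusted p of 0.05; the smallest adjusted p was 0.101, shared by Il17a, Nr4a3, Crem and Ccna2, and 1046 genes were under an unadjusted 0.05 (341 higher in small intestine, 3.41%, and 705 lower, 7.05%). On the same counts DESeq2 called 302 genes (108 higher, 1.08%, and 194 lower, 1.94%) and limma-voom 10 (8 higher, 0.08%, and 2 lower, 0.02%). Without the small intestine library labelled shCD8, edgeR called 161 genes (71 higher, 90 lower), and without the one labelled shMdr1 it called 2439 (447 higher, 1992 lower); both left 1 small intestine library, assumed to vary like the others, and they shared 80 genes. A set of 25 genes was called by DESeq2, by edgeR on the 4 Asbt+/+ libraries alone and by edgeR without the shCD8 small intestine library. Among the 25 were Il17a, Crem, Nr4a1, Nr4a3, Fosl2, Dgat1, Litaf, Penk, Il1r2, Hist1h1c and Kdm6b, all higher in small intestine, and Ccna2, Mki67, Camp, S100a8 and Ly6c2, all lower. Since the main test calls none, genes are described below by their value in each library and by the 2 hairpin pairs, in each of which the small intestine library was set over the spleen library of the same hairpin.

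By that rule 455 genes (4.55% of those tested) were at least 2-fold higher in small intestine in both pairs, 1383 (13.8%) at least 2-fold lower in both, and 925 at least 2-fold apart in opposite directions. The lower genes include many with no count in the library that stands apart. Of the 1383 lower genes, 883 had no count in the small intestine library labelled shCD8 and 467 none in the one labelled shMdr1, and the median log2 ratio over all tested genes was -0.48 in the shCD8 pair and -0.08 in the shMdr1 pair. Among the 5075 tested genes that averaged at least 20 CPM over all 8 libraries, 204 were higher and 248 lower in both pairs, a limit chosen after the data were seen. Groups that do not overlap, meaning that both small intestine libraries lie on 1 side of both spleen libraries, were found for 1553 genes on the higher side (15.5%) and 2893 on the lower (28.9%). Many genes named below were picked for being 2-fold apart the same way in both pairs, a choice that favours genes without overlap.

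**Figure D1:**
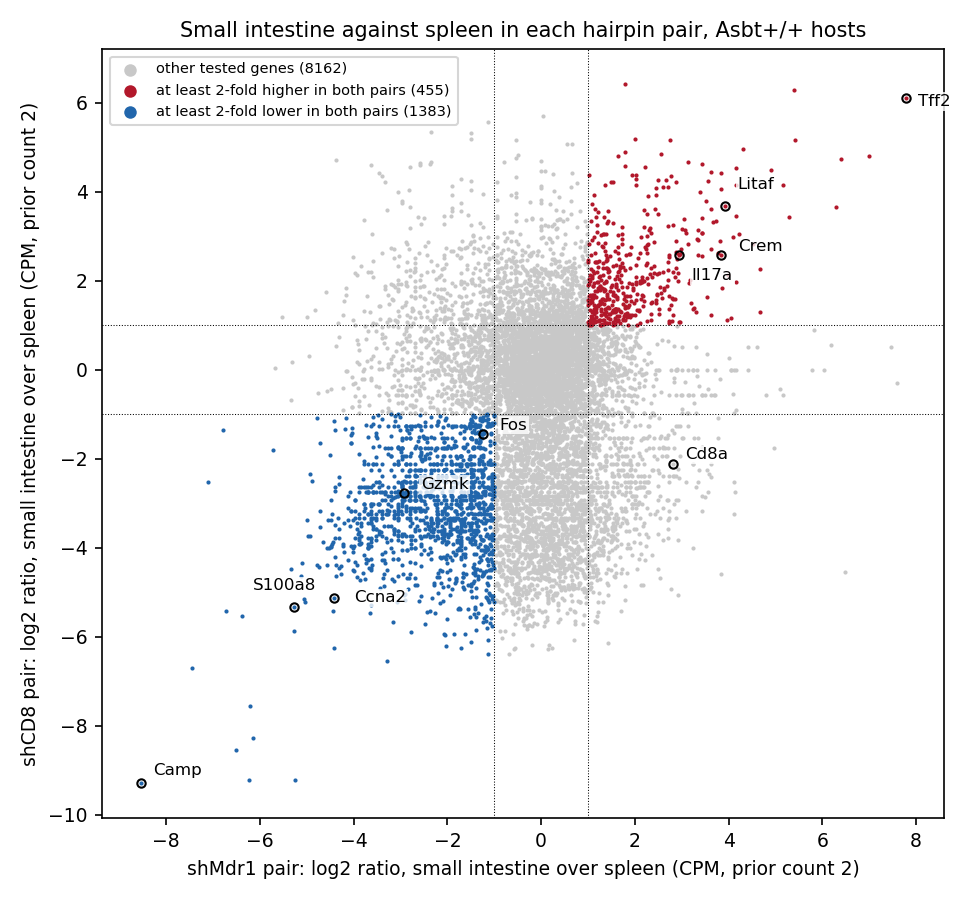
Log2 ratio of small intestine over spleen in the shMdr1 pair (horizontal axis) against the shCD8 pair (vertical axis), 1 point per tested gene, from TMM-scaled CPM with a prior count of 2. The 455 genes in the upper right and the 1383 in the lower left are at least 2-fold apart in the same direction in both pairs; Il17a, Crem, Litaf and Tff2 are marked in the upper right and Fos, Gzmk, Ccna2, S100a8 and Camp in the lower left.

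The effector cytokines of type 17 helper cells gave the clearest single gene. Il17a, which encodes IL-17A, the signature cytokine of these cells, stood at 1055 and 2374 CPM in small intestine and at 136 and 396 CPM in spleen. Both small intestine libraries were above both spleen libraries, the pair ratios were 2.95 and 2.58 on the log2 scale, and the fitted log2 difference was 2.76 ± 0.30 (SE, edgeR adjusted p = 0.101), or 6.77-fold. Il17a passed in 10 of 17 alternative fits, among them DESeq2 and limma-voom, and stood at 2.79 without the shCD8 small intestine library (edgeR adjusted p = 0.0103). Csf2, which encodes GM-CSF, a growth factor for myeloid cells, was at 151 and 399.9 CPM in small intestine and 29.6 and 43.4 CPM in spleen, again without overlap (log2 2.86 ± 0.67, edgeR adjusted p = 0.263). Furin, a protease that cleaves proproteins such as that of TGF-beta, followed at 311 and 188 CPM against 82.8 and 58.9 CPM. Of 20 tested genes on the type 17 list, 6 were at least 2-fold higher in both pairs (30%) and 2 lower (10%). All tested genes gave 4.55% and 13.8%. The list's medians were 1.32 and 0.46 in the 2 pairs, beside -0.08 and -0.48 for all genes, and 0 members passed edgeR. The higher ones included Rora, Tmem176a and Tmem176b. The lower ones were subunits of the IL-6 receptor: Il6ra was at 1.93 and 0 CPM against 20.4 and 28.8 CPM, and Il6st at 0.642 and 0 CPM against 12.1 and 16.3 CPM. Other type 17 cytokines did not follow in both pairs. Il17f, its close relative, was at 1.93 and 195 CPM in small intestine and 16.6 and 17.2 CPM in spleen, so the 2 pairs pointed in opposite directions, and Il22, which acts on epithelium, was at 600.2 and 636 CPM against 208 and 571 CPM.

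The 250 bases before the start of Il17a are shown because it was the type 17 gene with the smallest p in the test. They lie at chr1:20730655-20730904, on the plus strand of GRCm38.p6, as RefSeq gives them; the submitters' notes name the older build mm9, so these positions are not on the build of the counts. The capitals mark the match to TGANTCA, the letters searched here for the element of AP-1 dimers, 244 bases before the start. N stands for any base, and in this match it is A. A match describes letters only.
Il17a: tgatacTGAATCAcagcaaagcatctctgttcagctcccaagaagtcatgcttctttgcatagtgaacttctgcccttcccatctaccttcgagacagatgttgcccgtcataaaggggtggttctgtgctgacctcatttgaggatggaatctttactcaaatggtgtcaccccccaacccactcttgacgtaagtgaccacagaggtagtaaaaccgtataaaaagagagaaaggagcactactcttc

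Transcription factors switched on by the T cell receptor within minutes to hours were next. The NR4A nuclear receptors, orphan receptors whose transcripts follow the strength of receptor signalling, had all 3 members higher in both pairs. Nr4a3 was at 363 and 357 CPM in small intestine and at 28.7 and 53.7 CPM in spleen, with a fitted log2 difference of 3.17 ± 0.36 (edgeR adjusted p = 0.101), or 9.03-fold. Nr4a1, named Nur77 as a protein, was at 496 and 409 CPM against 54.9 and 106 CPM (2.56 ± 0.37, edgeR adjusted p = 0.130), and Nr4a2 at 289 and 103 CPM against 64.9 and 33.5 CPM. No spleen library reached a small intestine library for any of the 3. Of the list's 20 tested members, 12 were without overlap on the higher side and 2 on the lower, where all tested genes gave 15.5% and 28.9%. Fosl2, an AP-1 subunit, was at 300.4 and 366 CPM against 54.9 and 29.2 CPM (2.99 ± 0.50, edgeR adjusted p = 0.158), and Rel, the NF-kB subunit c-Rel, at 226 and 225 CPM against 72.0 and 86.0 CPM. Egr2 and Jun also passed 2-fold in both pairs, which made 7 of 20 tested members higher (35%, beside 4.55% of all tested genes). Fos, the partner of Jun in AP-1, went the other way and was the only member lower in both pairs, at 1290.2 and 1236 CPM in small intestine and at 3053 and 3349.6 CPM in spleen. Egr1, which marks the earliest response, was close in the 2 tissues (506 and 536 CPM against 373 and 389 CPM). The medians of the list were 0.76 and 0.71 in the 2 pairs, beside -0.08 and -0.48 over all tested genes. By edgeR 0 members passed, and by DESeq2 8 (7 higher, 1 lower). Of all tested genes DESeq2 called 1.08% higher and 1.94% lower.

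Some genes that answer cyclic AMP were higher in both pairs as well. Crem, which encodes a factor that binds cAMP response elements and whose short form damps them, was at 376 and 241 CPM in small intestine and 25.4 and 39.6 CPM in spleen. Its groups lie far apart, the fitted log2 difference was 3.23 ± 0.40 (edgeR adjusted p = 0.101), or 9.41-fold, and it passed in 7 of 17 alternative fits. Areg, the EGF receptor ligand amphiregulin with roles in tissue repair, was at 411 and 190.1 CPM against 32.5 and 80.8 CPM (2.54 ± 0.58, edgeR adjusted p = 0.263). Pde4d, a phosphodiesterase that breaks cAMP down, was at 123 and 57.6 CPM against 19.98 and 18.1 CPM. Rgs1 and Rgs2, which shut off G protein signals, were 2.17-fold and 2.09-fold higher by the fit. In all, 6 of 17 tested members (35.3%), Nr4a1 included, passed 2-fold in both pairs and none was lower. All tested genes gave 4.55% higher and 13.8% lower. The list's medians were 1.09 and 0.62, beside -0.08 and -0.48 for all genes, and 0 members passed edgeR. With each library scaled to its total count in place of TMM, 4 were 2-fold higher in both pairs (3.66% of all tested genes were). Creb1, the factor that is regulated by phosphorylation and not mainly by its transcript, was level at 69.3 and 65.1 CPM against 74.5 and 70.5 CPM. With total count scaling, 3 of 19 feedback genes of receptor signalling were higher in both pairs (3.66% of all tested genes were). With TMM, 5 were higher (26.3%) and 0 lower, beside 4.55% and 13.8% of all tested genes. Among them Cish, a brake on cytokine and receptor signals, was at 150.2 and 128 CPM against 40.8 and 47.7 CPM, and Dusp10, a phosphatase of stress kinases, at 77.7 and 94.3 CPM against 16.6 and 34.4 CPM.

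The Areg promoter is shown because its window holds the full element TGACGTCA, written in capitals, with its first base 61 bases before the start. It was picked after the match was seen. The window spans chr5:91139349-91139598 on the plus strand of GRCm38.p6 (RefSeq).
Areg: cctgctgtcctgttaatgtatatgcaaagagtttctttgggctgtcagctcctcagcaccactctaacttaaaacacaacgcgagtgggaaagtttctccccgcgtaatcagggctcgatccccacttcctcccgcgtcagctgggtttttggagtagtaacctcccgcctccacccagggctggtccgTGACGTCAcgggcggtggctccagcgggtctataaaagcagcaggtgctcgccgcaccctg

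Some costimulatory and inhibitory receptors were among the genes higher in both pairs. Ctla4, the inhibitory receptor for CD80 and CD86, was at 1006 and 1649.6 CPM in small intestine and 280.1 and 451 CPM in spleen. The ratio was alike in the 2 pairs (1.84 and 1.87), and the fitted log2 difference was 1.86 ± 0.29 (edgeR adjusted p = 0.148). Icos, a costimulatory receptor, was at 587 and 697 CPM against 169 and 259 CPM (1.61 ± 0.28, edgeR adjusted p = 0.164). Tnfrsf9, the costimulatory receptor 4-1BB, was at 78.3 and 263 CPM against 15.8 and 39.1 CPM, and Havcr2, the inhibitory receptor TIM-3, at 34.02 and 75.3 CPM against 4.99 and 1.72 CPM. None of these 4 overlapped between tissues, but they were named for being 2-fold apart in both pairs. Cd160 did overlap, at 415 and 64.7 CPM against 79.9 and 14.6 CPM. It was higher in small intestine within each hairpin but with a larger gap between the hairpins than between the tissues. Of 14 tested genes on the inhibitory receptor list 6 were higher in both pairs (42.9%) and 1 lower (7.1%). All tested genes gave 4.55% and 13.8%. Without overlap were 5 of the 14 on the higher side and 1 on the lower, where all tested genes gave 15.5% and 28.9%. The list's medians were 1.33 and 1.12, beside -0.08 and -0.48 for all genes, and 0 members passed edgeR. The lower member was Entpd1, the ectonucleotidase CD39, with no count in either small intestine library and 56 counts over the spleen libraries, at least 16.2-fold lower. Pdcd1, which encodes PD-1, was at 5.13 and 33.5 CPM against 12.1 and 5.16 CPM, so its pairs disagreed in sign.

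Of the regulatory T cell list 3 of 15 genes were higher in both pairs and 3 lower (20% each, beside 4.55% and 13.8% of all tested genes), and 0 passed edgeR. The 3 higher ones, Ctla4, Tnfrsf9 and Icos, are carried by activated effector cells too. Foxp3, the factor that defines regulatory T cells, was at 0 and 44.6 CPM in small intestine and 4.99 and 28.8 CPM in spleen, and Il10 at 0.642 and 61.5 CPM against 7.91 and 22.4 CPM. Both were higher with shCD8 than with shMdr1 in each tissue, and the sign of the fitted log2 difference turned when a small intestine library was left out (Foxp3 0.92 without the one labelled shMdr1, Il10 -3.95 without the one labelled shCD8). Nrp1, a surface receptor of thymus-derived regulatory T cells, was at 1.93 and 5.52 CPM against 55.4 and 37.4 CPM, without overlap (-3.57 ± 0.79, edgeR adjusted p = 0.263).

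Ifng, Tbx21 and Tnf, signature genes of type 1 helper cells, were not 2-fold apart in the same direction in both pairs. Ifng, which encodes interferon gamma, was at 931 and 377 CPM in small intestine and 592 and 318 CPM in spleen, with pair ratios of 0.65 and 0.24. Tbx21, which encodes the type 1 factor T-bet, was at 30.8 and 17.7 CPM against 35.4 and 11.6 CPM, and Tnf at 253 and 31.5 CPM against 96.2 and 121 CPM; neither kept a sign in both pairs. Of 16 tested members 3 were higher in both pairs, the chemokines Ccl3 (229 and 315 CPM against 71.6 and 66.6 CPM) and Ccl4 (951 and 1523 CPM against 414 and 331 CPM) and the death ligand Fasl (173 and 105 CPM against 40.4 and 41.7 CPM), and none lower; all tested genes gave 4.55% and 13.8%. The list's medians were 0.39 and 0.07, beside -0.08 and -0.48, and 0 members passed edgeR.

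The granzymes split. Gzma, a serine protease of cytotoxic granules, was at 4197 and 2778 CPM in small intestine and 1024 and 154 CPM in spleen (log2 2.72 ± 0.75, edgeR adjusted p = 0.309). Gzmb was at 391 and 425 CPM against 126 and 182 CPM. Gzmk, a granzyme linked to circulating memory cells, ran the other way at 5.78 and 9.86 CPM against 49.9 and 72.7 CPM (-2.99 ± 0.53, edgeR adjusted p = 0.164), and so did Klrg1, a lectin-like receptor of terminally differentiated effector cells, at 1.93 and 8.68 CPM against 10.4 and 80.8 CPM. The 2 tissues did not overlap for any of the 4 genes. In all 2 of 16 tested members of this list were higher in both pairs and 4 lower (12.5% and 25%, beside 4.55% and 13.8% of all tested genes). Of the 16, 4 were without overlap on the higher side and 3 on the lower, where all tested genes gave 15.5% and 28.9%. The list's median has no stable sign, at 0.80 in the shMdr1 pair and -0.53 in the shCD8 pair.

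Receptors for entry and residence were divided as well. Ccr9, the receptor for the small intestinal chemokine CCL25, was at 96.3 and 239 CPM in small intestine and 11.7 and 38.7 CPM in spleen (log2 2.78 ± 0.71, edgeR adjusted p = 0.285). Itgae, the integrin chain CD103 that binds epithelial E-cadherin, was at 189 and 208 CPM against 33.7 and 69.2 CPM (2.06 ± 0.50, edgeR adjusted p = 0.268). Itgb1, the integrin beta 1 chain shared by receptors for extracellular matrix, was at 4.49 and 24.4 CPM against 142 and 78.7 CPM (-3.01 ± 0.74, edgeR adjusted p = 0.268). Each of the 3 separated the tissues without overlap. Cd69, an early activation and residency marker, was not higher (663 and 715 CPM against 668 and 843 CPM), and Itgb7, the beta chain of the gut homing integrin, was at 399 and 360.4 CPM against 565 and 412 CPM. Of 19 tested gut homing and residency genes 3 were at least 2-fold higher in both pairs (15.8%), Ccr9, Itgae and Rgs1, and 1 lower (5.3%), Itgb1. All tested genes gave 4.55% and 13.8%. Without overlap were 5 of the 19 on the higher side and 3 on the lower, where all tested genes gave 15.5% and 28.9%.

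Genes of lymphoid homing, exit and memory held some that were lower. Klf2, the factor that sustains exit receptors, was at 287 and 352 CPM in small intestine and 633 and 758 CPM in spleen (log2 -1.12 ± 0.28, edgeR adjusted p = 0.268). S1pr1, the exit receptor itself, was at 9.63 and 55.2 CPM against 127 and 130.3 CPM, and Lef1, a factor of naive and memory cells, at 28.9 and 21.3 CPM against 90.7 and 72.7 CPM. All 3 were lower in both small intestine libraries than in either spleen library. Of the list's 21 tested members, 10 were without overlap on the lower side and 3 on the higher, where all tested genes gave 28.9% and 15.5%. In all 4 of 21 tested members (19%, beside 13.8% of all tested genes) were lower in both pairs, 1 was higher, and the list's medians were -0.63 and -1.10, beside -0.08 and -0.48 for all genes. The higher member was Ltb, which encodes lymphotoxin beta, at 343 and 348 CPM against 101 and 115 CPM (1.68 ± 0.30, edgeR adjusted p = 0.175). Il7r, the IL-7 receptor of long-lived cells, was level at 229.8 and 214 CPM against 245 and 233 CPM.

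Secreted mediators held 9 of 22 tested members higher in both pairs (40.9%) and 1 lower (4.5%). All tested genes gave 4.55% and 13.8%. The list's medians were 1.57 and 0.19, beside -0.08 and -0.48 for all genes, and 0 members passed edgeR. Penk, the precursor of the opioid peptide enkephalin, was at 142 and 364 CPM in small intestine and 15.8 and 42.6 CPM in spleen (log2 3.13 ± 0.49, edgeR adjusted p = 0.148). Il1r2, the decoy receptor that captures IL-1, was at 289 and 324 CPM against 27.5 and 53.3 CPM (3.01 ± 0.49, edgeR adjusted p = 0.158). Neither overlapped between tissues. Of the list's 22 tested members, 11 were without overlap on the higher side and 1 on the lower, where all tested genes gave 15.5% and 28.9%. Tnfsf11, which encodes RANKL, was at 106 and 279 CPM against 15.4 and 58.0 CPM, and Ccl1, the ligand of CCR8, at 456 and 909 CPM against 17.1 and 187 CPM. Cxcl9, an interferon-induced chemokine made mostly by myeloid and stromal cells, had 265 counts over the small intestine libraries and 1 over the spleen libraries, a ratio of 306 with a 95% counting interval of 54.5 to 12135.

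**Figure D2:**
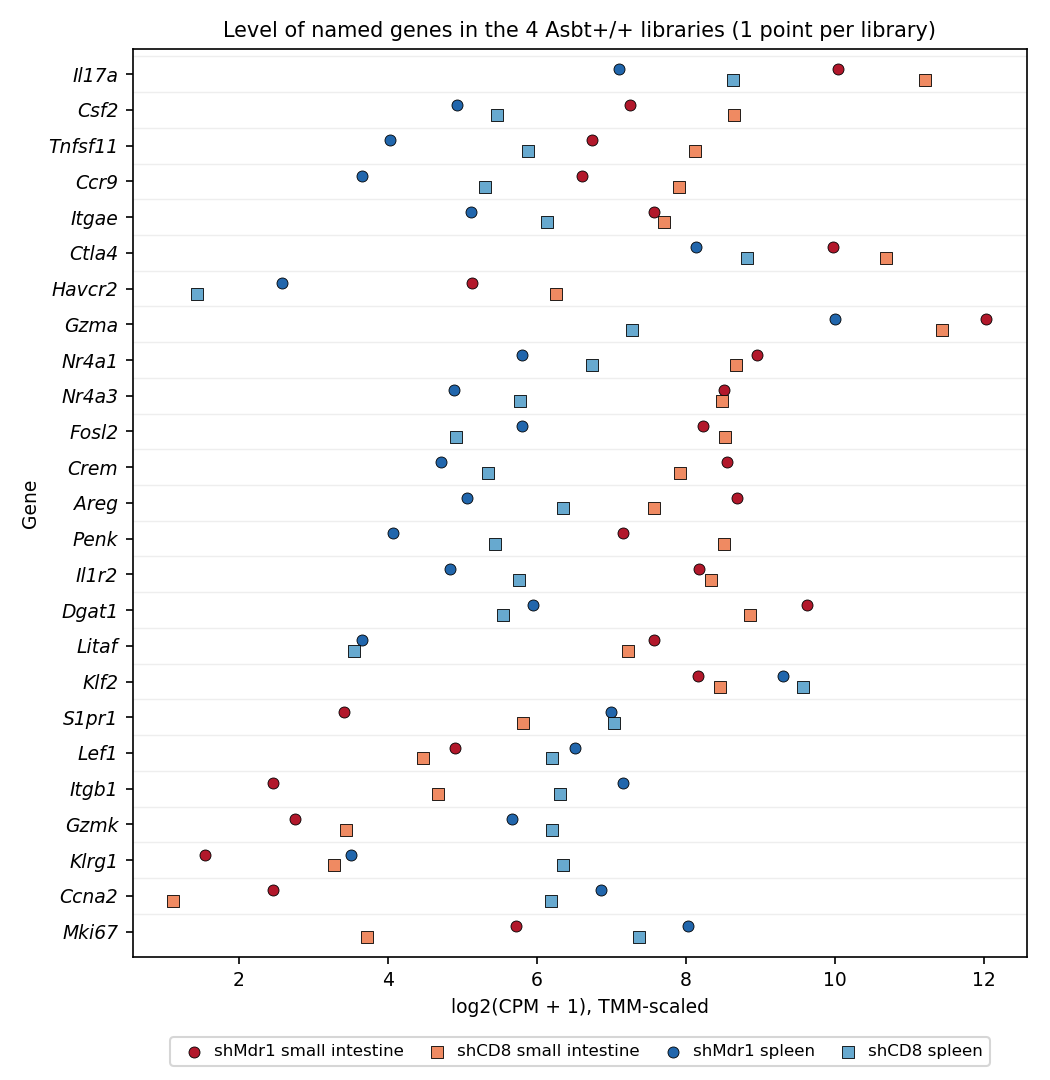
Level as log2(TMM-scaled CPM + 1) of 25 genes described in the text, with 1 point for each of the 4 Asbt+/+ libraries, coloured by tissue and shaped by hairpin. From Il17a to Litaf both small intestine points lie above both spleen points, and from Klf2 to Mki67 both lie below.

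Among genes of metabolism, Dgat1 had the largest pair ratios of its list. Dgat1, the enzyme of the last step of triglyceride synthesis, was at 787 and 465 CPM in small intestine and 60.8 and 46.0 CPM in spleen. With a fitted log2 difference of 3.53 ± 0.47 (edgeR adjusted p = 0.121), or 11.5-fold, it passed in 10 of 17 alternative fits, and no library overlapped. It was the only gene of 16 tested for lipid storage and cholesterol at 2-fold in both pairs (6.25%, near the 4.55% of all tested genes). The list's medians were 0.36 and 0.51, beside -0.08 and -0.48 for all genes. Glycolysis gave 1 of 15 (6.7%), Pfkl, a subunit of phosphofructokinase, at 21.2 and 19.3 CPM against 8.32 and 6.02 CPM. Heat shock genes (0 of 13), unfolded protein response genes (0 of 11) and cytosolic ribosomal protein genes (0 of 22) had no member 2-fold apart in the same direction in both pairs. At any size of difference, both small intestine libraries were above both spleen libraries for 8 of 15 glycolysis genes, 5 of 13 heat shock genes, 4 of 11 unfolded protein response genes and 5 of 22 ribosomal protein genes, beside 15.5% of all tested genes.

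Of the bile acid and xenobiotic list only 5 of 15 genes passed the filter on low counts. The bile acid receptor genes Nr1h4, Nr1i2, Vdr and Gpbar1 did not, so nothing is given for them. Abcb1b, the second Mdr1 gene of the mouse, was at 18.6 and 17.7 CPM in small intestine and 5.41 and 3.44 CPM in spleen, higher in both pairs (log2 2.00 ± 1.02, edgeR adjusted p = 0.536). Abcb1a, its near-identical neighbour, was lower in the shCD8 pair (-2.18) and about level in the shMdr1 pair (-0.33), on 23 and 21 counts in small intestine and 45 and 95 in spleen. Reads that both genes share could have been counted for either.

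Of the NRF2, ferritin and metallothionein list 3 of 17 genes were higher in both pairs (17.6%, beside 4.55% of all tested genes) and 2 lower (11.8%, beside 13.8%), and 0 passed edgeR. Sqstm1, the autophagy adaptor p62, was at 200.3 and 342 CPM in small intestine and 80.8 and 112 CPM in spleen, Sod2, the mitochondrial superoxide dismutase, at 98.2 and 84.8 CPM against 38.3 and 40.8 CPM, and Mt2, a metallothionein, at 26.3 and 91.5 CPM against 4.99 and 3.01 CPM. The 2 lower members had few counts in small intestine. Gclm, a subunit of the enzyme that starts glutathione synthesis, had 2 counts over the small intestine libraries and 117 over the spleen libraries, a ratio of 50.6 (95% counting interval 13.7 to 423), and Hmox1, heme oxygenase 1, had 1 against 35 (ratio 30.3, interval 5.09 to 1231). These intervals cover counting error only, since the libraries carry no molecular identifiers. In the survival list 5 of 19 (0 past edgeR) were higher (26.3%) and 1 lower (5.3%), beside 4.55% and 13.8% of all tested genes. The higher ones were 3 of the BCL2-related Bcl2a1 genes, whose near-identical copies could share reads, with Fasl and Gadd45b. Gadd45b, a stress-induced gene, was at 465 and 483 CPM against 129 and 198 CPM.

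Of the lists of functions, the cell cycle list had the largest share of members lower in small intestine. Of 30 tested cell cycle and replication genes 21 were at least 2-fold lower in small intestine in both pairs and 0 higher. Of all tested genes 13.8% were lower. The list's medians were -1.86 and -2.01, and 0 members passed edgeR. By DESeq2 11 passed as lower, where 1.94% of all tested genes did. Mki67, the marker of dividing cells, was at 52.0 and 12.2 CPM in small intestine and 261 and 164 CPM in spleen (log2 -2.90 ± 0.51, edgeR adjusted p = 0.164). Ccna2, which encodes cyclin A2 of S phase and G2, was at 4.49 and 1.18 CPM against 115 and 72.2 CPM (-5.19 ± 0.64, edgeR adjusted p = 0.101), and Birc5, the mitotic protein survivin, at 111 and 61.9 CPM against 485 and 347 CPM (-2.32 ± 0.39, edgeR adjusted p = 0.158). Ube2c, which feeds the anaphase-promoting complex, was at 39.2 and 58.0 CPM against 233 and 241 CPM. In all 4 genes both small intestine libraries were below both spleen libraries. The same held for 26 of the list's 30 tested members, where all tested genes gave 28.9%. Some genes were nearly undetected in small intestine: Cdk1, the mitotic kinase, was at 3.21 and 0 CPM against 87.4 and 68.8 CPM, and Cenpf, a centromere protein outside the list, had 0 counts against 144, at least 41.6-fold lower. Not all replication genes were lower, with Mcm6, a subunit of the replicative helicase, at 99.5 and 132 CPM against 128 and 100.2 CPM and Pcna, the sliding clamp, at 129 and 191 CPM against 256 and 202 CPM. In the shMdr1 pair alone, which leaves out the library with few genes, 26 of 30 were at least 2-fold lower (24% of all tested genes were), and in the shCD8 pair alone 22 (42%). Among the 23 with a mean of at least 20 CPM, 15 were lower in both, beside 4.89% of all genes of that level.

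In Asbt-/- hosts 1 of 30 on the same list was higher in both pairs and 0 lower, near the shares of all tested genes there (5.32% higher, 6.24% lower), with medians of 0.09 and 0.17. There Ccna2 was at 61.4 and 29.1 CPM in small intestine and 49.2 and 26.8 CPM in spleen, so its small intestine values were higher and its spleen values lower than in Asbt+/+ hosts. Mki67 was at 89.2 and 59.1 CPM against 125 and 111 CPM in these hosts, and Birc5 at 274 and 77.8 CPM against 240.1 and 145 CPM. The interaction, the tissue difference in Asbt+/+ minus that in Asbt-/- hosts, was -5.41 ± 0.80 for Ccna2 and -2.17 ± 0.68 for Mki67 on the log2 scale. Neither passed edgeR (adjusted p = 0.837 for both); by DESeq2 Ccna2 passed (adjusted p = 0.000339) and Mki67 did not (adjusted p = 0.314). The 2 host comparisons share no library. In bulk libraries fewer cells of a type and less RNA per cell cannot be told apart, for dividing cells as for any other.

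**Figure D3:**
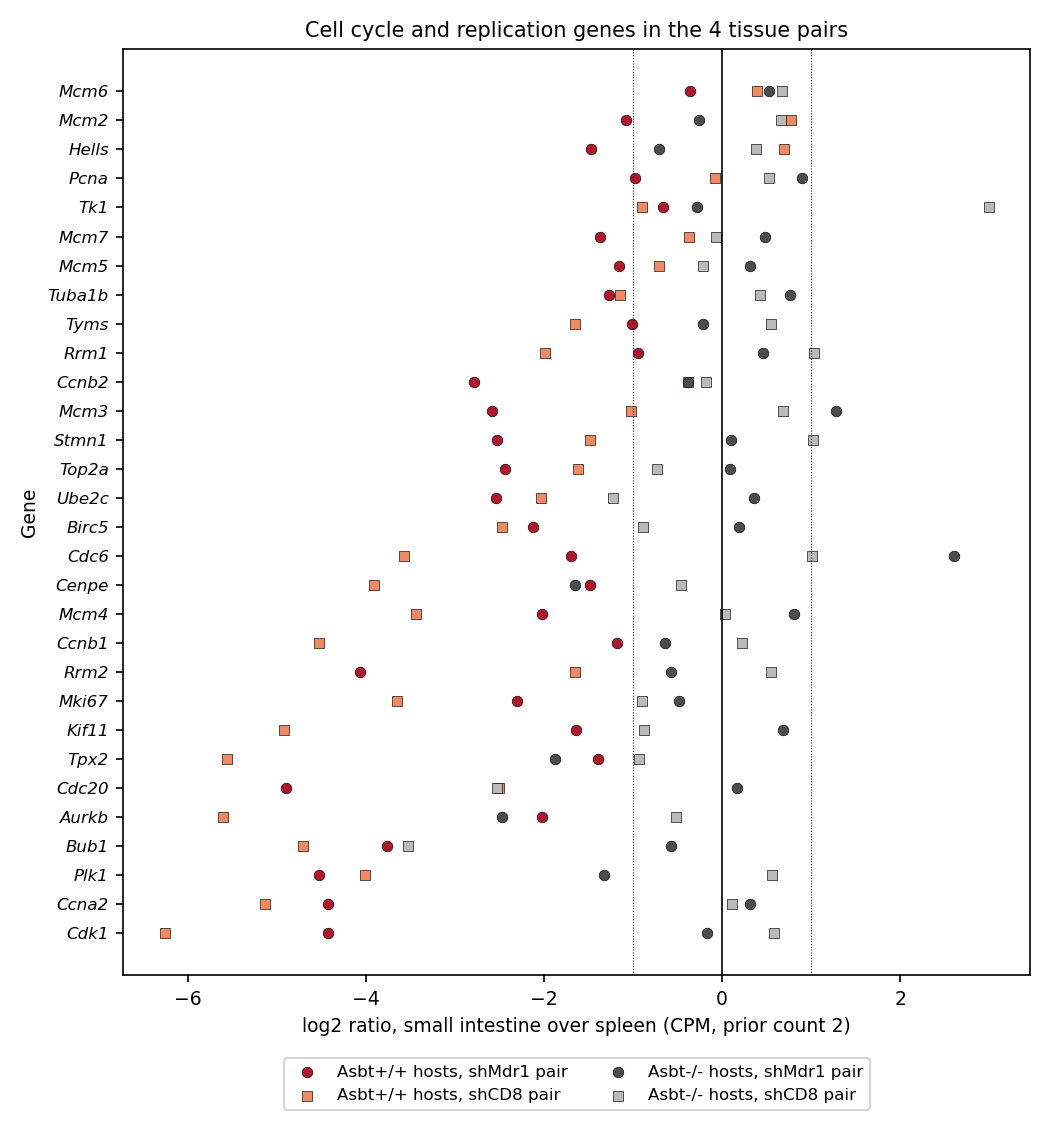
Log2 ratio of small intestine over spleen for the 30 tested cell cycle and replication genes, in each of the 2 hairpin pairs of Asbt+/+ hosts and of Asbt-/- hosts, with the line at 0 marking equal levels. In Asbt+/+ hosts 21 genes lie below -1 in both pairs, and in Asbt-/- hosts 0 do.

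Promoters of Mki67 and Ube2c are shown for this group. The capitals mark the 6 letters TTTGAA, or their complement read 5′ to 3′ where the match is on the other strand (as in Ube2c), the core of the cell cycle homology region, an element bound by the repressor complex that silences mitotic genes in resting cells; this motif was added after the data were seen, and the 2 genes were picked for holding it. The Mki67 window is chr7:135716380-135716629, minus strand, with matches 116 and 98 bases before the start. The Ube2c window is chr2:164769679-164769928, plus strand, with a match 29 bases before the start. Both are on GRCm38.p6 from RefSeq.
Mki67: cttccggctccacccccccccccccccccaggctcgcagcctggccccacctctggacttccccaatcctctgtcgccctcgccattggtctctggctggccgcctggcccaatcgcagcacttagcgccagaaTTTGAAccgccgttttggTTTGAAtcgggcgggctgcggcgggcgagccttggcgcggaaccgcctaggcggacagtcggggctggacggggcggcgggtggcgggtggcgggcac
Ube2c: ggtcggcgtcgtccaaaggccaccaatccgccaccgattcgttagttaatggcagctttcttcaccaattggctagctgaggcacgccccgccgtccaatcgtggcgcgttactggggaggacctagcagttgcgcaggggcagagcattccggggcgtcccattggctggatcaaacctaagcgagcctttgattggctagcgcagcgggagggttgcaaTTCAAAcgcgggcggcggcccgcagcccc

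Searching 250 bases before to 50 after the start on both strands, 9 of 26 promoters of the cell cycle list (25 of 30 genes matched by symbol) held TTTGAA, or 34.6%, against 12.3% of the promoters of all tested genes and 17.9% of 32851 promoters in the table. Among promoters of the 1383 lower genes (1047 matched) the share was 15%, and among those of the 455 higher genes (305 matched) 13.6%. The full cAMP response element TGACGTCA stood in 3.22% of promoters of the higher genes and 3.4% of those of all tested genes, TGANTCA in 6.19% and 4.92%, and AAAGGTCA, the NR4A monomer element, in 1.24% and 0.962%. No test was run on these shares. TTTGAA and TGANTCA can share letters, so 1 stretch can count for both motifs.

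Interferon-stimulated genes had 4 of 25 lower (16%, near the 13.8% of all tested genes) and 1 higher in both pairs, with medians of -0.41 and -0.36. Mx1, an antiviral GTPase, had 0 counts over the small intestine libraries and 71 over the spleen libraries, at least 20.5-fold lower.

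**Figure D4:**
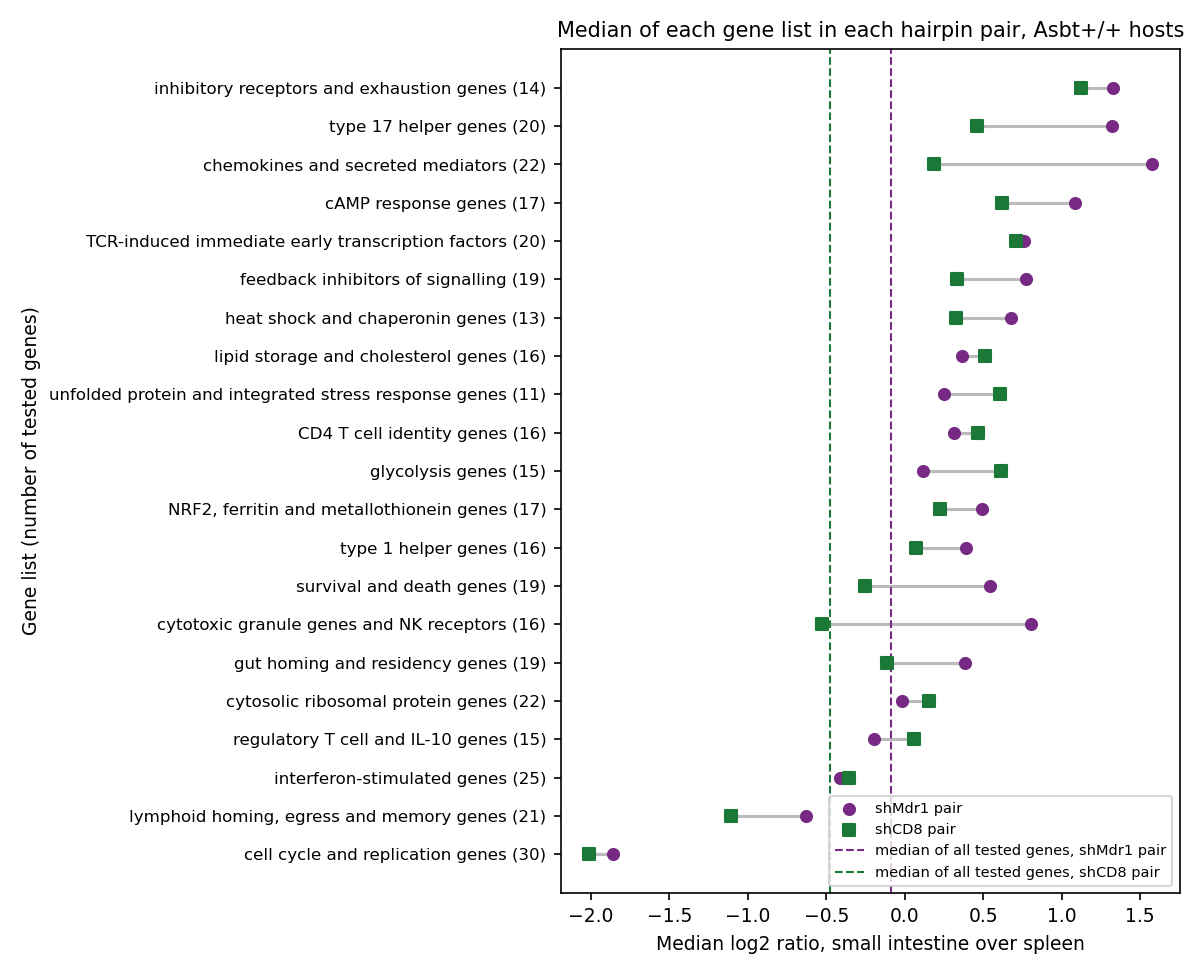
Median log2 ratio of small intestine over spleen of the fixed gene lists in the shMdr1 and shCD8 pairs of Asbt+/+ hosts, with dashed lines at the medians over all tested genes (-0.08 and -0.48). The cell cycle list lies near -2 in both pairs, and the inhibitory receptor list above 1 in both.

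Transcripts of other cells differed strongly between the tissues and sit beside each of the results above. Neutrophil markers (8 and 3 of 16 detected in small intestine, 14 and 13 in spleen) summed to 202 and 111 CPM in small intestine and to 7785 and 6885 CPM in spleen. Of 10 tested, 9 were lower in both pairs (90%, beside 13.8% of all tested genes). S100a8, a calprotectin subunit of neutrophils and monocytes, was at 121 and 105 CPM against 4711 and 4224 CPM (log2 -5.31 ± 0.89, edgeR adjusted p = 0.158), and Camp, a granule peptide of maturing neutrophils, had 1 count against 2704, a ratio of 2341 (95% counting interval 419.8 to 92500). Erythroid markers summed to 89.9 and 127 CPM against 2174 and 5171 CPM, with 7 of 8 tested lower (87.5%, beside 13.8% of all tested genes). They were led by Hbb-bs, a beta globin, at 16.7 and 7.10 CPM against 1248 and 2470.0 CPM. Globin copies are near-identical and may share reads. Dividing precursors of both lineages express cell cycle genes too, and the part of such cells in the cell cycle result was not tested. In Asbt-/- hosts 8 of the 10 neutrophil markers were again lower in small intestine in both pairs (6.24% of all tested genes were). Their spleen sums were smaller there, at 3070.3 and 876 CPM. S100a8 stood at 4.75 and 29.5 CPM in small intestine against 1622 and 481 CPM in spleen of these hosts. Erythroid markers in spleen summed to 41669 and 1104 CPM in Asbt-/- hosts, against 2174 and 5171 CPM in Asbt+/+ hosts. The summed cell cycle genes of the spleen libraries were smaller in Asbt-/- hosts (1612 and 1479.6 CPM, against 3175 and 2470.4 CPM in Asbt+/+ hosts). Those of the small intestine libraries were larger (1863.5 and 1524.4 CPM, against 887.1 and 914.1 CPM).

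Epithelial markers (15 and 15 of 21 detected in small intestine, 14 and 11 in spleen) ran the opposite way and summed to 1105 and 331 CPM in small intestine and to 261 and 67.1 CPM in spleen. Of 14 tested, 7 were higher in both pairs (50%, beside 4.55% of all tested genes) and none lower. Tff2, a trefoil peptide of mucus, had 467 counts over the small intestine libraries and 0 over the spleen libraries, a level at least 179.8-fold higher. Defa24, among the closely related defensin genes of Paneth cells, had 177 against 0, which is at least 68.1-fold. Reg3g, an antibacterial lectin, was at 228 and 55.2 CPM against 22.1 and 6.45 CPM. Of the 21 markers Fabp1, Apoa1, Apoa4, Krt20 and Muc2 had no count in either small intestine library, while Fabp2, of enterocytes, had 0 and 58 counts there. Myeloid and antigen-presenting markers summed to 935 and 1764 CPM against 955 and 635 CPM, so that their groups overlapped. Of 16 tested, 1 was higher in both pairs and 1 lower (6.25% each, beside 4.55% and 13.8% of all tested genes). Cd74, the class II invariant chain, was at 137 and 476 CPM against 69.1 and 64.9 CPM. B and plasma cell markers summed to 20.5 and 210 CPM against 142 and 201 CPM, with Pax5 and Jchain at 0 in all 4 libraries. Markers of CD8 T cells and innate lymphocytes summed to 145 and 271 CPM against 157 and 258 CPM, which overlap. Stromal and endothelial markers summed to 80.2 and 35.9 CPM against 12.9 and 21.5 CPM, which do not. Of 4 tested stromal and endothelial markers, 0 were without overlap and 0 were 2-fold apart the same way in both pairs. Their medians were 1.83 in the shMdr1 pair and -0.50 in the shCD8 pair. In Asbt-/- hosts Il17a, Crem, Nr4a3 and Ctla4 were at least 2-fold higher in small intestine in both pairs as well. The epithelial markers of these hosts summed to 113 and 67.8 CPM in small intestine and 42.5 and 22.5 CPM in spleen. Their myeloid and antigen-presenting markers summed to 1413 and 1646 CPM in small intestine and 347 and 508 CPM in spleen. Of 16 tested myeloid markers, 8 were higher in both Asbt-/- pairs and 0 lower, beside 5.32% and 6.24% of all tested genes. The part of such other cells in the results for T cell genes was not tested.

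**Figure D5:**
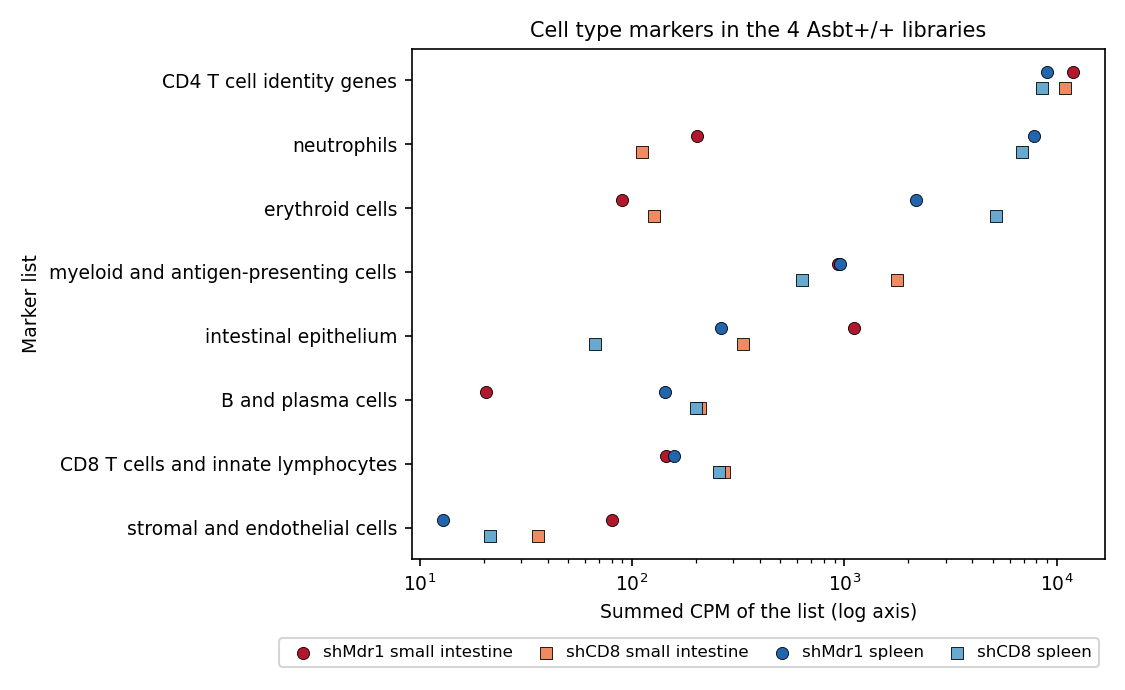
Summed TMM-scaled CPM of marker lists on a log10 axis, 1 point per Asbt+/+ library, coloured by tissue and shaped by hairpin. CD4 T cell genes lie between 8500 and 11969 CPM in the 4 libraries, while neutrophil and erythroid markers are higher in both spleen libraries and epithelial markers in both small intestine libraries.

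When genes were ranked by the smaller of their pair ratios, transcripts of those other cells filled much of the top: Tff2, Defa24 and Saa3 among the higher, and Camp, Ngp, Wfdc21, Chil3, Hbb-bs and Hba-a2 among the lower. Others were on none of the marker lists. Litaf, a regulator of endosomal sorting, was at 189 and 148 CPM in small intestine and 11.7 and 10.7 CPM in spleen (log2 3.89 ± 0.50, edgeR adjusted p = 0.118), and Ier5l, an immediate early gene of little-known function, at 83.4 and 120.3 CPM against 3.33 and 3.01 CPM. Among the lower genes Ly6c2, a surface antigen of memory T cells and monocytes, had 1 count against 406, a ratio of 351.5 (95% counting interval 62.7 to 13917). Hist1h1c and Kdm6b, named after their values were seen, encode the linker histone H1.2 and a demethylase of histone H3. Hist1h1c was at 851 and 608 CPM against 185 and 152 CPM, and Kdm6b at 296 and 164 CPM against 61.2 and 38.3 CPM.

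Genes at least 4-fold apart in opposite directions in the 2 pairs show how far single libraries differ. Agr2, an epithelial secretory protein, was at 80.9 and 0 CPM in small intestine and 0 and 20.2 CPM in spleen, and Fabp2, the fatty acid binding protein of enterocytes, at 0 and 22.9 CPM against 17.9 and 0 CPM. Fabp4 and Pank3 were at 0 in the small intestine library labelled shCD8 and had 68 and 75 counts in the one labelled shMdr1. Platr3 and Mal were the reverse, at 0 with shMdr1 and at 79.7 and 35.9 CPM with shCD8.

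The tissue difference in Asbt+/+ hosts was set against that in Asbt-/- hosts by the interaction, and edgeR called 0 of 10000 genes (0%; smallest adjusted p 0.837; 594, 5.94%, under an unadjusted 0.05), limma-voom 0 and DESeq2 30 (0.3%). Without the small intestine library labelled shMdr1, edgeR called 1551 genes and without the one labelled shCD8 it called 9. Genes at least 2-fold higher in small intestine in all 4 pairs of both hosts include Il17a, whose pair ratios were 1.96 and 2.23 in Asbt-/- hosts, Nr4a3 (3.25 and 2.92), Crem (2.76 and 2.85) and Ctla4 (2.11 and 1.52). Those with ratios near 0 or opposite there include Gzmk (0.85 and 1.49, interaction -4.19 ± 0.72), Klrg1 (1.07 and 0.76, interaction -3.89 ± 1.12), Ltb (0.11 and -0.16, interaction 1.69 ± 0.42) and Klf2 (0.04 and -0.46, interaction -0.91 ± 0.39), each with an edgeR adjusted p of 0.837 for the interaction; by DESeq2 only Gzmk of these 4 passed (adjusted p = 0.00222). Gzmk was at 51.9 and 115 CPM in small intestine and 28.3 and 40.2 CPM in spleen of Asbt-/- hosts. The mitochondrial genes mt-Co1 and mt-Nd5 and the ribosomal RNA gene Rn18s-rs5 were among the smallest interaction p-values. In Asbt+/+ hosts mt-Co1 was at 22371 and 7552 CPM against 5660.1 and 5207 CPM. In Asbt-/- hosts it was at 8475 and 6449 CPM against 24500.0 and 12708 CPM. The mitochondrial share of all counts in Asbt-/- hosts was 8.62% and 7.27% in small intestine and 26.8% and 17.6% in spleen.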

How the data were processed

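The members, gene lists and motifs of this description were chosen with earlier results of these data known. The authors deposited raw read counts per gene for 8 libraries (37411 genes, 17570 with a count), made from full-length cDNA (SMART-Seq v4 and NEBNext Ultra II, per the labels' protocols) without molecular identifiers. The submitters' processing notes name TopHat, HTSeq, DESeq2 and the build mm9; their versions, the annotation and strand handling were not given in the sources used here. Overlapping, antisense and near-identical genes may thus share reads. The hairpin of a library was taken from its title, since the retrovirus label names shMdr1 for all 8.

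From the counts, genes passing edgeR's filterByExpr were kept (10000 genes, 99.5% of counts), scaled by TMM and fitted with edgeR's quasi-likelihood test (edgeR 4.0.16, R 4.3.3) over all 8 libraries, with host, hairpin and tissue within host as terms (5 coefficients, 3 residual degrees of freedom). P-values were adjusted by Benjamini-Hochberg over all tested genes, with a threshold of 0.05. SE is the log2 difference over the square root of F. Pair ratios are log2 TMM-scaled CPM with a prior count of 2, and are a description with no test. Where a gene had no count in both libraries of a tissue, a bound was computed against a floor of 3 counts over the tissue's 2 libraries; with 1 to 3 counts, a ratio with an exact 95% interval, which covers counting error only. The code was tested on simulated data.

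Named genes were a fixed set (Il17a, Ifng, Tnf, Il10, Foxp3, Tbx21, Cd4, Cd3e, Cd8a, Cd8b1, Abcb1a, Abcb1b, Slc10a2, Hmox1); up to 4 members per list by smallest p among those 2-fold apart in both pairs with a mean of at least 10 CPM in the higher tissue; up to 12 genes per direction by the smaller pair ratio; up to 6 per direction by interaction p; and up to 6 at least 4-fold apart in opposite directions. Other genes in the text were chosen after their values were seen. Some genes are not reported here. Alternatives were limma-voom (limma 3.58.1), DESeq2 1.42.0 and its size factors, no filter, other covariates, the Asbt+/+ libraries alone, and each library left out. Promoters (RefSeq, GRCm38.p6) were matched by symbol.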

Additional observations from a re-analysis of the deposited data

Results flagged for a closer look

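For 15 named genes both tissue pairs of Asbt+/+ hosts pointed one way and both pairs of Asbt-/- hosts the other. The difference was tested as an interaction, and edgeR's adjusted p was 0.837 or higher for each, so none passed by edgeR. By DESeq2, 9 passed: Ccna2 (adjusted p = 0.000339), mt-Nd5 (0.000622), Rn18s-rs5 (0.000761), Gzmk (0.00222), mt-Co1 (0.00297), Art2a-ps (0.0159), Hist1h1e (0.0175), Cenpw (0.0182) and Akap7 (0.0319). The values below are log2 tissue differences in Asbt+/+ minus those in Asbt-/- hosts.

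Lower in small intestine in Asbt+/+ hosts and higher in Asbt-/- hosts were Ccna2 (-5.41), Cenpw, a centromere protein (-2.50), Gzmk (-4.19), Klrg1 (-3.89), Entpd1 (-9.89, from 0 small intestine counts in Asbt+/+ hosts, so a value that depends on the prior count), Abcb1a (-2.51) and the pseudogene Art2a-ps (-3.88). Cenpw was at 96.9 and 223 CPM in small intestine and 434 and 455 CPM in spleen of Asbt+/+ hosts, and at 272 and 381 CPM against 137 and 215 CPM in Asbt-/- hosts. Abcb1a, whose small intestine levels go against the hairpin labels in Asbt+/+ hosts, was at 40.4 and 91.0 CPM against 22.2 and 29.7 CPM in Asbt-/- hosts.

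Higher in Asbt+/+ hosts and lower in Asbt-/- hosts were the linker histone gene Hist1h1e (3.32), Prrc2c (2.15), Sod2 (1.39), Akap7 (7.25), the B cell gene Cd79b (6.51, from 0 and 1 small intestine counts in Asbt-/- hosts), and 3 genes of mitochondrial or ribosomal RNA, mt-Co1 (2.53), mt-Nd5 (2.71) and Rn18s-rs5 (3.43). Hist1h1e was at 329 and 134 CPM against 58.7 and 29.7 CPM in Asbt+/+ hosts and at 22.6 and 26.3 CPM against 88.0 and 28.3 CPM in Asbt-/- hosts.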

How the results depend on the processing

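The count of genes past the threshold depended on the test and on single libraries. Against 0 by edgeR, no filter gave 161 genes, DESeq2 302, limma-voom 10, a hairpin term separate in each host 8, and the 4 Asbt+/+ libraries alone 42 with the hairpin term and 0 without it; leaving out each library in turn gave 1 to 2439. For the interaction, also 0 by edgeR, no filter gave 25, DESeq2 30, and leaving out each library 0 to 1551. DESeq2 size factors, no hairpin term, and no hemoglobin, mitochondrial and Rn18s-rs5 counts gave 0 for both. The cause of these differences was not tested. The count of genes 2-fold apart in both pairs was 1838; it was 1101 with a prior count of 10, 2766 at 1.5-fold, 728 at 4-fold, 452 among genes of at least 20 CPM, 3912 in the shMdr1 pair alone and 5799 in the shCD8 pair alone, the last 3 chosen after the data were seen. Total count scaling (1930), DESeq2 size factors (1834), no filter (2271) and no hemoglobin, mitochondrial and Rn18s-rs5 counts (1855) moved it by less than 1.5 times.

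Of 1843 alternative values of named genes, 1472 kept their direction and side of the threshold, 343 newly passed it, 0 lost it, 19 reversed, and 9 were pair ratios of the genes with opposite pairs that shrank with a prior count of 10. No value could lose the threshold, since no gene passed it in the main fit. The reversals were in 6 genes with small fitted differences or single empty libraries. Tnf was at -0.20 with limma-voom, -0.25 with the hairpin term separate in each host, -0.26 with the 4 libraries and hairpin term, and at -1.79 to 1.20 with each library left out. Il10 was at -0.47 and -0.63 in those last 2 fits and -3.95 to 1.75 with each library left out. Foxp3 was at 0.41 with no hairpin term, 0.39 with the 4 libraries and no hairpin term, and -6.94 to 0.92 with each library left out. With each library left out, Cd8a ran from -6.44 to 3.26, Ifng from -0.49 to 1.15 and Tbx21 from -0.087 to 0.47. Tested genes with no count numbered 2482 in the small intestine library labelled shCD8, which had the highest total count of the Asbt+/+ libraries, against 803, 157 and 167 in the others; the cause was not tested.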
